A study of Mus musculus with 4 samples.

Results

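Mitochondrial ribosomal proteins were taken as the genes whose symbol is Mrpl or Mrps followed by a number. There were 78 of them, 49 Mrpl genes (named for the large subunit) and 29 Mrps genes (named for the small subunit), among 22252 gene names with expected counts. All 78 passed the filter used here, a count above 0 in every library and a mean of at least 50, as did 11141 genes in all. Gene expression was measured by RNA-seq in gastrocnemius muscle of male mice aged 7 weeks, in 4 groups with 1 library each, made from pooled RNA of 3 mice. All mice carried floxed alleles (GR Flox+/+) of Nr3c1, the gene of the glucocorticoid receptor GR. GRfl/fl mice had no Cre (Cre-/-), and GR-mKO mice carried Acta1-Cre (Cre+/-), which deletes exon 3 of Nr3c1 in myofibers and leaves the other cells of the muscle intact. Lean mice were Lep+/+, and ob/ob mice were Lep ob/ob and lack functional leptin.

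Since each group has 1 library, the spread between mice is unknown, and no P value is given. Errors are 95% Clopper-Pearson intervals that cover counting error only. Library totals ran from 19897754 to 20959781 expected counts. Levels are CPM, each gene's share of the counts in its library, and the scaling of edgeR (TMM), which sets libraries against the bulk of their genes, is given beside it. A gene is said to have risen or fallen where it passed 1.5-fold. The median log2 change of all genes tested with obesity was -0.11 in GRfl/fl and -0.20 in GR-mKO mice by CPM and 0.00 and 0.01 by TMM. Nr3c1 was at 125 CPM in lean GRfl/fl, 67.0 in lean GR-mKO, 102 in ob/ob GRfl/fl and 39.1 in ob/ob GR-mKO mice, so it was lower in both GR-mKO libraries. These counts cover the whole gene, and the deleted exon was not counted by itself.

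The mitochondrial ribosome translates the few mRNAs of mitochondrial DNA, all of them for subunits of the oxidative phosphorylation (OXPHOS) complexes. Its RNAs come from mitochondrial DNA, whereas its proteins are encoded in the nucleus, made in the cytosol and imported. Some of these proteins have a bacterial counterpart, and others are found only in mitochondria. The small subunit reads the mRNA, and the large subunit forms the peptide bond. The symbol does not always give the place: Mrps30 and Mrps18a encode proteins of the large subunit, and Mrps36 encodes a component of the 2-oxoglutarate dehydrogenase complex. By place, 51 members belonged to the large and 26 to the small subunit.

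Promoters were read for the members that fell with obesity in both genotypes and for Mrpl1, which fell with genotype. RefSeq (GRCm38.p6) gave 75 windows of the 250 bases before the start for 69 of the 78 genes. Of these windows, 27 lay outside the gene as annotated by GENCODE in the same build, 33 lay partly and 15 wholly within it. Those of Mrps16 (before the upstream of 2 starts, chr14:20393635-20393884) and Mrps21 (chr3:95871515-95871764), both on the minus strand, had 0 and 5 bases within the gene and are shown, as windows upstream of members that fell. Mrpl54, which also fell in both genotypes, had no window, so it is named only and its promoter was not searched. Capitals mark matches to motifs of ETS factors and NRF1, which are known to act at promoters of nuclear genes for mitochondrial proteins.
Mrps16: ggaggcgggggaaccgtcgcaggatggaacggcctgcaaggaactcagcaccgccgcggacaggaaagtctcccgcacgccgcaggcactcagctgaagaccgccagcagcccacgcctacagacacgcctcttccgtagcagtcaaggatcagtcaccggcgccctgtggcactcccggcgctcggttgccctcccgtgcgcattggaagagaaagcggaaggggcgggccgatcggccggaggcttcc
Mrps21: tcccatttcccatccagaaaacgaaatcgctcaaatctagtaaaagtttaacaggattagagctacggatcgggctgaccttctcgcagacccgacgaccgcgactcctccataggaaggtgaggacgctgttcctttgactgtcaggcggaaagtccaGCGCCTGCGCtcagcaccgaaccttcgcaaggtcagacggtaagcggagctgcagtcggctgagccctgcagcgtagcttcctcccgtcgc

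Mrps21 held the NRF1 motif at -91 from the start, in reverse orientation, and the printed window of Mrps16 held neither in these letters. The window before the downstream start of Mrps16 held the ETS motif at -74, within 144 bases that belong to the annotated gene. The windows of Mrps33 and Mrpl1, with 52 and all 250 bases within the gene, held neither. Over the members, CCGGAAG (ETS, both strands) was found in 18 of 75 windows (24.0%), against 13.3% of the windows of all genes tested and 6.91% of all windows. The NRF1 motif in 10 letters was found in 10 windows (13.3%), against 8.01% and 3.74%. Without its last letter (GCGCANGCG) it was found in 13 windows (17.3%), against 10.9% and 5.16%. The shorter form was added after the counts of the longer one had been seen. AAGATGGCG (YY1) was found in 2 windows (2.67%, against 1.12% of those of genes tested) and TATAAA in 5 (6.67%, against 6.63%). The 2 forms of the NRF1 motif overlap each other, and a match is a description of the sequence only. The start of a gene on the opposite strand lay within 1000 bases for 19 members (24.4%), against 10.9% of all genes tested, as for Mrpl54 and Apba3.

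The summed level of the members was lower in both ob/ob libraries. It was 3072 CPM in lean GRfl/fl, 3107 in lean GR-mKO, 2505 in ob/ob GRfl/fl and 2534 in ob/ob GR-mKO mice. The log2 ratio of ob/ob to lean was -0.29 in both genotypes (-0.31 to -0.28 in each). By TMM it was -0.19 in GRfl/fl and -0.09 in GR-mKO mice. Between genotypes, the log2 ratio of GR-mKO to GRfl/fl was 0.02 in lean and in ob/ob mice by CPM, and by TMM it was -0.04 in lean and 0.06 in ob/ob mice, so that its sign in lean mice turned with the scaling. The muscle differed in other ways too: all 9 slow fibre markers rose with obesity, by a median of 1.29 on the log2 scale in both GRfl/fl and GR-mKO libraries, and the 5 erythroid markers tested had -1.23 and -1.24 and all fell. Summed slow fibre markers were at 519 and 692 CPM in the lean libraries, against 1152 and 1646 CPM in those of ob/ob mice. The 6 type IIb fibre markers summed to 60632 and 58110 CPM against 63271 and 74188 CPM. Of these, Myh4 went from 23320 to 29006.5 and from 20868 to 37872 CPM (0.31 and 0.86 on the log2 scale). Pvalb had -0.41 and -0.33, so the higher sums were not shared by all 6. Summed adipocyte markers were at 512 and 272 CPM against 265 and 143 CPM. Cfd was lower in ob/ob mice (267 to 14.4 and 145 to 8.91 CPM). Without Cfd these markers were at 245 and 127 against 250.4 and 134 CPM, and these sums hold changes in both directions. Lep rose by 2.30 and 2.84 on the log2 scale (14.1 to 69.6 and 5.89 to 42.1 CPM). Cidec went from 70.4 to 50.7 and from 26.9 to 18.3 CPM, and Retn from 20.9 to 9.34 and from 13.6 to 6.69 CPM. Liver markers summed to 189 and 124 CPM against 23.4 and 37.6 CPM, and without Cyp2e1 to 7.06 and 14.5 against 5.42 and 25.7 CPM. Endothelial markers had medians of -0.33 and -0.71 and the 4 leukocyte markers tested -0.42 and -1.49, and of all markers Cd3e alone was at 0 in a library. Their part in the results was not tested. In whole muscle, fewer cells of a type and less RNA per cell cannot be told apart.

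**Figure D1:**
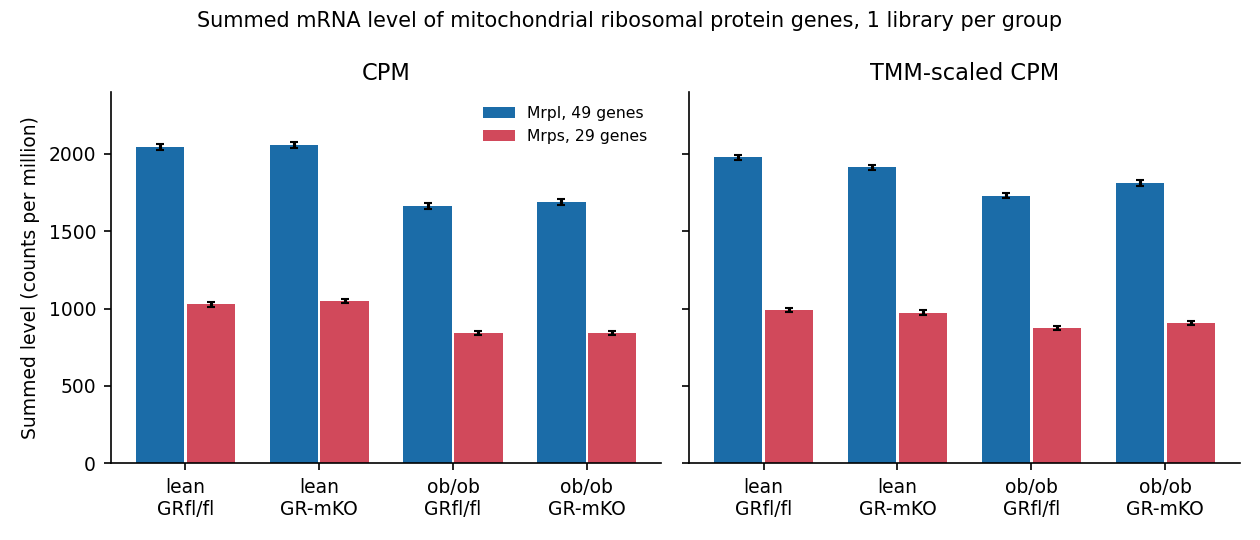
Summed level (CPM, y axis) of the 49 Mrpl (blue) and 29 Mrps (red) genes in the 4 libraries (x axis), by CPM (left) and TMM (right), with error bars for the 95% interval of counting. Both sets are lower in the ob/ob libraries, for example 1664 CPM in ob/ob GRfl/fl against 2045 CPM in lean GRfl/fl mice for the Mrpl genes.

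The subunits were lower to a like extent. By symbol, Mrpl genes summed to 2045, 2059, 1664 and 1690 CPM in lean GRfl/fl, lean GR-mKO, ob/ob GRfl/fl and ob/ob GR-mKO mice. Mrps genes summed to 1026, 1049, 842 and 844 CPM. The ratio of Mrpl to Mrps was 1.99 (1.96 to 2.03), 1.96 (1.93 to 1.996), 1.98 (1.94 to 2.01) and 2.001 (1.97 to 2.04), and these intervals overlap. By place, the large subunit summed to 2160, 2168, 1752 and 1771 CPM and the small subunit to 858, 886, 713 and 726 CPM. The ratio of large to small was then 2.52 (2.47 to 2.56), 2.45 (2.40 to 2.49), 2.46 (2.41 to 2.50) and 2.44 (2.39 to 2.49), and these intervals overlap too. The median log2 change with obesity was -0.28 for Mrpl and -0.32 for Mrps genes in GRfl/fl mice, against -0.24 and -0.28 with GR-mKO. By place rather than symbol the medians were -0.28 for both subunits in GRfl/fl mice, whereas GR-mKO mice had -0.27 and -0.26. Small-subunit proteins with a bacterial counterpart (16 genes) had medians of -0.38 and -0.39, and those specific to mitochondria (10 genes) had -0.09 and -0.17. In the large subunit the corresponding medians were -0.28 and -0.29 (30 genes) and -0.36 and -0.19 (21 genes). The order of these classes differed between subunits in GRfl/fl mice only. By TMM, the mitochondria-specific classes had 0.01 and 0.03 in the small and -0.25 and 0.01 in the large subunit. The classes also differed in length in the small subunit. Median coding lengths there were 529.5 nucleotides with a bacterial counterpart and 708 for the mitochondria-specific class, against 589.5 and 588 in the large subunit. The part of length in these medians was not tested.

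In GRfl/fl mice, 71 of 78 members were lower in the ob/ob library, beside 62.4% of all genes tested. Their median log2 change was -0.29. By CPM 7 members fell past 1.5-fold, beside 11.4% of all genes tested, and 0 rose, beside 5.1%. By TMM 3 fell, beside 7.95%, and 0 rose, beside 7.54%. In GR-mKO mice 71 of 78 were again lower, beside 68.0% of all genes, with a median of -0.27. By CPM 7 fell, beside 19.7%, and 0 rose, beside 4.79%. By TMM 0 fell, beside 11.5%, and 0 rose, beside 9.51%. By TMM, 57 members were lower in GRfl/fl and 48 in GR-mKO mice, beside 49.9% and 48.9% of all genes. The share of members that fell past 1.5-fold was below that of all genes in each case, but by CPM at the lower of the other folds tried it was above (44.9% against 27.3%) in GRfl/fl and near (38.5% against 38.2%) in GR-mKO mice, and the share that was lower at all was above it. These comparisons share no library: 66 members were lower in both by CPM, beside 51.5% of all genes, and 45 (57.7%) by TMM, beside 34.4%. The changes of the 78 members in the 2 genotypes had Pearson's r = 0.71 and Spearman's rho = 0.72 across genes, which are not independent, beside 0.50 and 0.52 over all genes.

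**Figure D2:**
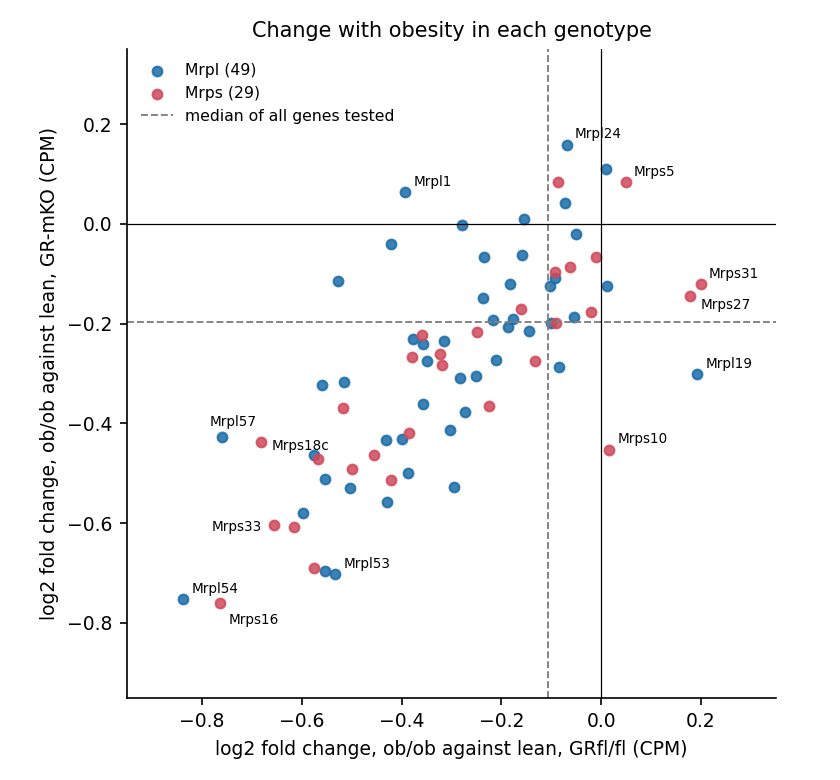
Log2 fold change of CPM with obesity in GRfl/fl (x axis) and GR-mKO mice (y axis), 1 point per Mrpl (blue) or Mrps (red) gene, with dashed lines at the medians of all genes tested. Of the 78 points, 66 lie below 0 on both axes, with Mrpl54 and Mrps16 lowest.

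With obesity, 4 members (5.13%) fell by CPM in both genotypes, beside 6.67% of all genes tested: Mrpl54, Mrps16, Mrps21 and Mrps33. By TMM 0 fell in both, beside 3.69%. Mrpl54, a large-subunit protein specific to mitochondria (gene at chr10:81264713-81266934), was at 56.0 CPM in lean GRfl/fl, 59.5 in lean GR-mKO, 31.3 in ob/ob GRfl/fl and 35.3 in ob/ob GR-mKO mice. Both ob/ob libraries were below both lean ones. Its log2 change with obesity was -0.84 (-0.98 to -0.70) in GRfl/fl and -0.75 (-0.89 to -0.62) in GR-mKO mice, and -0.73 and -0.55 by TMM.

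Mrps16, a small-subunit protein with a bacterial counterpart (chr14:20389304-20393634), was at 28.7, 28.5, 16.9 and 16.8 CPM in the same order. The libraries of the same background were nearly equal. Its log2 change was -0.76 in each genotype (-0.96 to -0.57), and -0.66 and -0.55 by TMM. Mrps21, which also has a bacterial counterpart, was at 57.1, 61.9, 37.2 and 40.6 CPM, with changes of -0.62 and -0.61 (-0.51 and -0.40 by TMM). Mrps33, a mitochondria-specific protein of the small subunit, was at 22.4, 26.2, 14.2 and 17.2 CPM, with changes of -0.66 and -0.60 (-0.55 and -0.40 by TMM). Mrps33 was chosen after its values were seen. By TMM, neither Mrps21 nor Mrps33 passed 1.5-fold.

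In GRfl/fl mice alone Mrpl57, Mrps18c and Mrpl52 also fell. Mrpl57, a mitochondria-specific large-subunit protein, was at 32.7, 30.8, 19.3 and 22.9 CPM. Its change was -0.76 in GRfl/fl mice (-0.65 by TMM) and -0.43 in GR-mKO mice. Mrps18c, a small-subunit protein with a bacterial counterpart, was at 25.8, 24.8, 16.1 and 18.3 CPM, with changes of -0.68 and -0.44, and Mrpl52 had changes of -0.60 and -0.58. By TMM Mrpl57 alone of these 3 passed 1.5-fold, with -0.57 for Mrps18c and -0.49 for Mrpl52 in GRfl/fl mice. In GR-mKO mice alone Mrpl53 (-0.53 and -0.70), Mrpl33 (-0.55 and -0.69) and Mrps24 (-0.58 and -0.69) fell, and the latter pair was chosen after its values were seen. By TMM none of these 3 passed 1.5-fold, with -0.50, -0.49 and -0.48. All 6 were lower in both genotypes, and whether their change differed between genotypes was not tested.

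**Figure D3:**
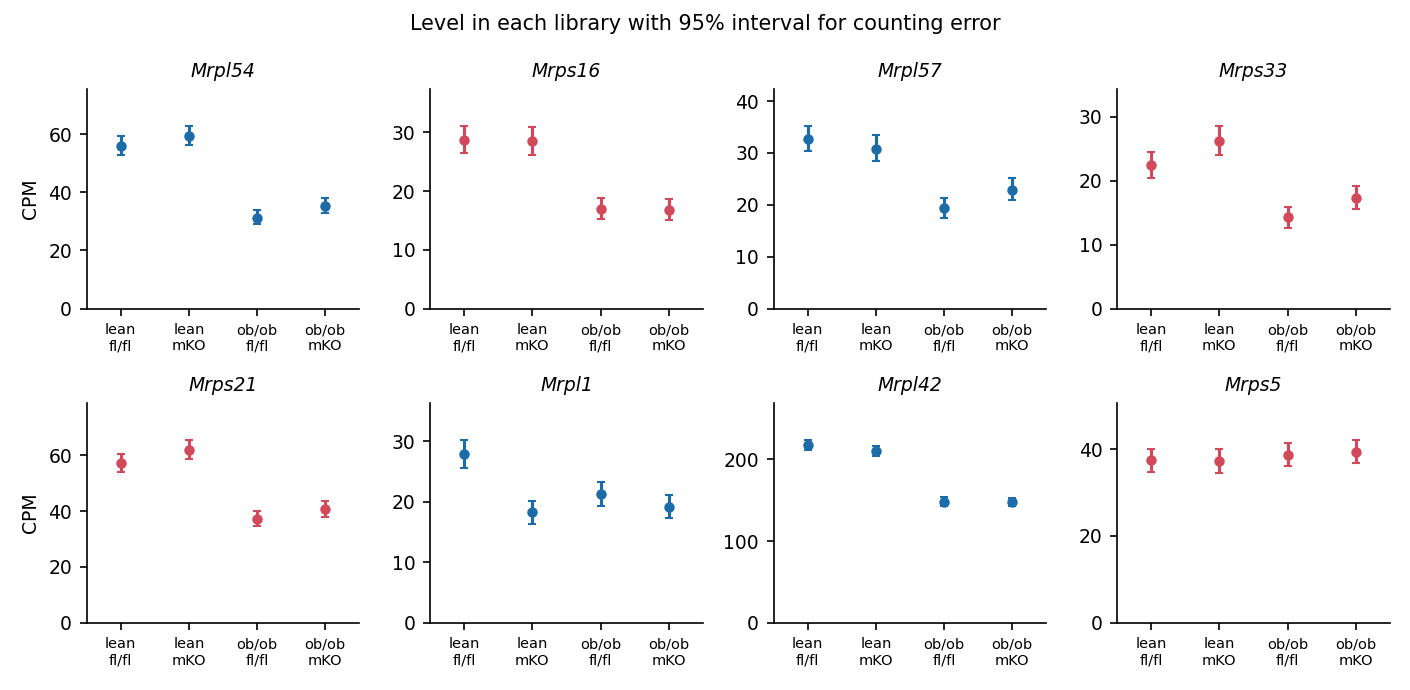
Level (CPM, y axis from 0) of 8 members in the 4 libraries (x axis, fl/fl for GRfl/fl and mKO for GR-mKO), as points with 95% intervals of counting, blue for Mrpl and red for Mrps genes. Mrpl54, Mrps16, Mrps33 and Mrps21 are lower in both ob/ob libraries, Mrps5, chosen after its values were seen, lies between 37.2 and 39.4 CPM in all 4, and Mrpl1 is highest in lean GRfl/fl at 27.9 CPM.

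Mrpl39 and Mrps5 alone were higher in both genotypes by CPM, by 0.01 and 0.11 for Mrpl39 and 0.05 and 0.08 for Mrps5 on the log2 scale, and the intervals of all 4 changes include 0. By TMM, 18 members were higher in both. Mrps31, Mrpl19 and Mrps27 had the highest changes in GRfl/fl mice and were lower in GR-mKO mice by CPM. Mrps31, a mitochondria-specific small-subunit protein, was at 21.1, 24.9, 24.2 and 22.9 CPM, with changes of 0.20 in GRfl/fl and -0.12 in GR-mKO mice. Mrpl19 was at 17.1, 21.2, 19.6 and 17.2 CPM (0.19 and -0.30), and Mrps27, which contains pentatricopeptide repeats, had 0.18 and -0.14. For all 3, the sign was opposite in the 2 genotypes by CPM, and by TMM it was so for Mrpl19 (0.30 and -0.10) but not for the others. For scale, the counting intervals of all members had a median half-width of 0.17 in GRfl/fl and 0.16 in GR-mKO mice. The changes of Mrps31 and Mrps27 in GR-mKO mice were smaller than that, and all 3 in GRfl/fl mice were little above it. Whether these changes differed between genotypes was not tested. The highest changes in GR-mKO mice were those of Mrpl24 (0.16), Mrpl39 (0.11) and Mrps2 (0.08).

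The changes with obesity varied with the length of the coding sequence. The members' median coding length was 582 nucleotides, against 1389 for all genes tested. Spearman's rho between coding length and log2 change across the 78 members was 0.69 in GRfl/fl and 0.70 in GR-mKO mice, against 0.28 and 0.25 across all genes, and for the listed transcript it was 0.49 and 0.56. In GRfl/fl mice, the 26 members with 195 to 480 nucleotides had a median of -0.47, the 26 with 498 to 753 had -0.28, and the 26 with 756 to 1326 had -0.10. All genes with coding lengths in the same ranges had -0.39, -0.22 and -0.13. In GR-mKO mice the members had -0.43, -0.28 and -0.12, and all genes in these ranges had -0.44, -0.30 and -0.22. By TMM the longest members had 0.01 and 0.08. By length of the listed transcript, the 26 shortest members had -0.43 in each genotype, against -0.52 and -0.55 for all genes in that range, and the 26 longest had -0.16 and -0.19, against -0.08 and -0.17. Whether the shortest members in GRfl/fl mice, and the longest in both genotypes, lay above or below genes of like length therefore depended on the measure of length. By coding length, all 7 members that fell in GRfl/fl mice and 6 of the 7 that fell in GR-mKO mice were in the shortest class. By length of the listed transcript, 4 of the 7 in each genotype were. By CPM 26, 25 and 20 of the 26 members per class, from short to long, were lower, by either measure and in either genotype. Of all genes in the ranges of coding length, 84.7%, 76.4% and 67.6% were lower in GRfl/fl mice. In GR-mKO mice these shares were 86.0%, 80.2% and 73.2%. In the ranges of transcript length the shares were 93.9%, 83.7% and 60.3% in GRfl/fl and 94.5%, 85.9% and 66.2% in GR-mKO mice. The part of length in the results was not tested.

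**Figure D4:**
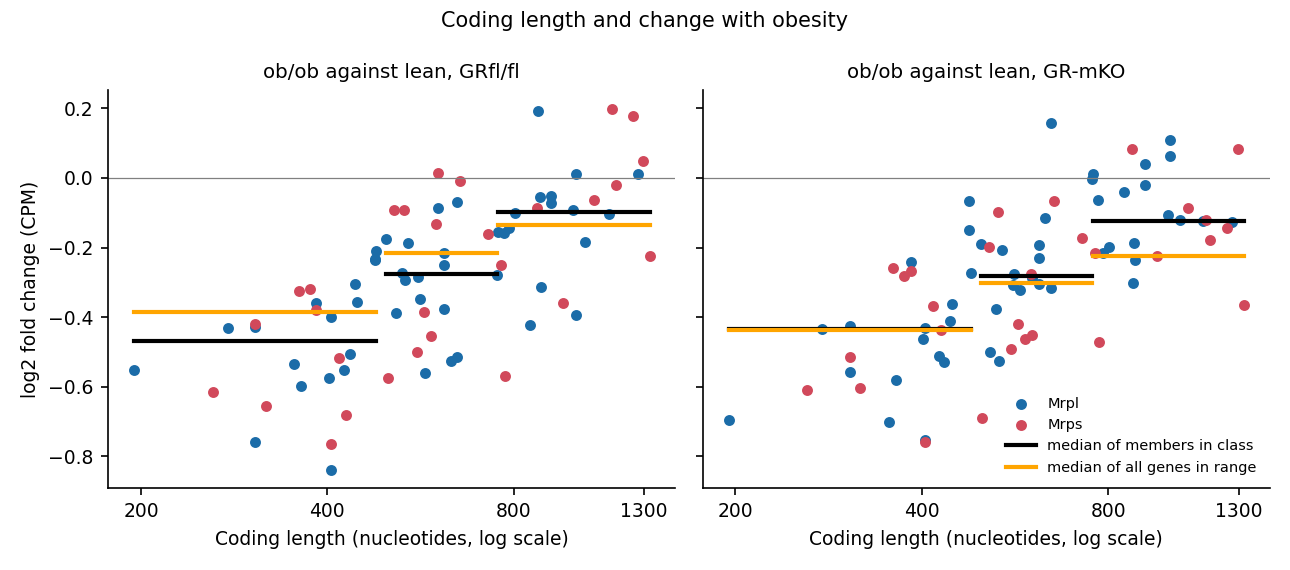
Coding length (nucleotides, log scale, x axis) and log2 fold change of CPM with obesity (y axis) in GRfl/fl (left) and GR-mKO mice (right), 1 point per member, with bars for the medians of members (black) and of all genes tested (orange) in 3 ranges of length. The medians of members go from -0.47 to -0.10 in GRfl/fl mice, and those of all genes from -0.39 to -0.13.

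Between genotypes the summed level of the members was nearly equal, while all 6 adipocyte markers were lower in GR-mKO mice (medians of -0.87 for the lean and -0.77 for the ob/ob pair of libraries), and their part was not tested. In lean mice, the median log2 change of GR-mKO against GRfl/fl was 0.02, with 34 of 78 lower, and by TMM -0.04, with 50 lower. In ob/ob mice it was 0.03 with 34 lower, and by TMM 0.08 with 27 lower. In lean mice 1 member fell by either scaling, beside 3.59% of all genes tested by CPM and 4.23% by TMM, and 0 rose, beside 4.88% and 3.99%. In ob/ob mice 0 fell, beside 8.11% by CPM and 6.9% by TMM, and 0 rose, beside 4.41% and 5.08%.

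The member that fell was Mrpl1 (chr5:96209493-96266727), which encodes a large-subunit protein with a bacterial counterpart. It was at 27.9 CPM in lean GRfl/fl, 18.3 in lean GR-mKO, 21.2 in ob/ob GRfl/fl and 19.1 in ob/ob GR-mKO mice. The lean GRfl/fl library stood above the others. The change with genotype was -0.61 (-0.81 to -0.42) in lean mice, -0.67 by TMM, and -0.15 (-0.35 to 0.04) in ob/ob mice. The highest changes in lean GR-mKO mice were those of Mrpl41 (0.33), Mrpl19 (0.31) and Mrps10 (0.30). In ob/ob GR-mKO mice they were those of Mrpl46 (0.37), Mrpl48 (0.35) and again Mrpl41. None of these changes passed 1.5-fold. The lowest in ob/ob mice were Mrps27 (-0.23), Mrps26 (-0.20) and Mrpl2 (-0.19). Across the 78 members the changes with genotype in lean and ob/ob mice had r = 0.27 and rho = 0.24, beside 0.23 and 0.14 over all genes tested.

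Levels between genes were compared as CPM per kilobase of the transcript listed for each gene. Mrpl42 was highest, at 329, 319, 224 and 223 CPM per kilobase in lean GRfl/fl, lean GR-mKO, ob/ob GRfl/fl and ob/ob GR-mKO mice. Mrps21 followed with 117, 127, 76.3 and 83.2, and then Mrpl52, Mrpl14 and Mrpl12, the last of which forms the stalk that binds translation factors. The lowest were Mrpl19 (3.42, 4.23, 3.91 and 3.44), Mrps35, Mrpl47, Mrps25 and Mrpl1. The listed transcript need not be the main isoform, and by coding length Mrps25 moved from rank 75 to rank 23. Of the members whose symbol hides their role, Mrps30 was at 38.5, 39.8, 33.0 and 30.9 CPM, Mrps18a at 76.2, 69.2, 55.6 and 50.2 CPM, and Mrps36 at 53.3, 53.6, 39.8 and 37.5 CPM. Mrpl58, a peptidyl-tRNA hydrolase built into the large subunit, was at 19.5, 18.7, 15.0 and 15.9 CPM. Mrps18b, Mrpl47 and Mrpl55 had changes with obesity of -0.25, -0.15 and -0.58 among GRfl/fl libraries. These levels were lower in both ob/ob libraries, except for Mrpl47 in GR-mKO mice, with 17.9 CPM (lean) and 18.1 CPM (ob/ob).

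The 5 ribosomal proteins with other names had medians of -0.24 and -0.21 with obesity. Chchd1 fell from 70.2 to 42.3 CPM with obesity in GRfl/fl mice and from 70.7 to 41.1 CPM in GR-mKO mice (-0.73 and -0.78). By TMM it had -0.63 and -0.58, and the change in GR-mKO mice did not pass 1.5-fold. Aurkaip1 had changes of -0.52 and -0.54, and Dap3, a GTP-binding protein of the small subunit, had -0.05 and -0.21. Gadd45gip1 had -0.24 and -0.05, and Ptcd3 had 0.12 and 0.14. By TMM the medians of these 5 genes were -0.14 and -0.01. The 15 translation factors had 0.04 and -0.01 (0.15 and 0.20 by TMM), and 1 of them, Slirp, which binds mitochondrial mRNAs, fell in both genotypes (-1.26 and -0.90, and -1.16 and -0.69 by TMM), which is 6.67% of the list, beside 6.67% of all genes by CPM and 3.69% by TMM. The 25 assembly factors had -0.05 and -0.23 (0.05 and -0.02 by TMM), of which 0 and 2 (8.0%) fell by CPM, beside 11.4% and 19.7% of all genes, and 0 by TMM in either genotype. The 17 aminoacyl-tRNA synthetases had 0.05 and -0.15 (0.16 and 0.06 by TMM). In lean mice 5 of these synthetases (29.4%) rose in GR-mKO mice by CPM, beside 4.88% of all genes tested, and 3 (17.6%) by TMM, beside 3.99%, led by Fars2 (1.04, from 7.05 to 14.5 CPM). In ob/ob mice 1 rose by either scaling (5.88%), beside 4.41% and 5.08%.

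Groups with related products differed in size of change. The 80 cytosolic ribosomal proteins tested had medians of -0.70 and -0.79 with obesity, and 59 (73.8%) and 64 (80.0%) fell, beside 11.4% and 19.7% of all genes. By TMM the medians were -0.60 and -0.58, and 41 (51.2%) and 37 (46.2%) fell, beside 7.95% and 11.5%. Before the filter, 83 cytosolic ribosomal protein genes summed to 18894, 20106, 12158 and 12179 CPM. The 83 nuclear-encoded OXPHOS subunits tested had -0.41 in each genotype, and 20 (24.1%) and 23 (27.7%) fell by CPM. By TMM they had -0.30 and -0.21, and 10 (12.0%) and 8 (9.64%) fell, which is above the share of all genes in GRfl/fl and below it in GR-mKO mice. Before the filter, 86 OXPHOS genes had log2 ratios of summed CPM of -0.25 and -0.27, against -0.29 in each genotype for the members. By TMM these ratios were -0.14 and -0.06, against -0.19 and -0.09. By sums the OXPHOS genes thus changed slightly less than the members, whereas their median change was larger. The 13 mitochondrially encoded mRNAs, which the mitochondrial ribosome translates, had 0.03 in each genotype and by TMM 0.13 and 0.24. By CPM they ranged from -0.49 (mt-Nd3) to 0.21 (mt-Nd4l) in GRfl/fl and from -0.66 to 0.32 in GR-mKO mice. By TMM mt-Nd3 had -0.39 and -0.45, so it passed 1.5-fold in GR-mKO mice by CPM alone. Median coding lengths were 468 nucleotides for cytosolic ribosomal proteins and 411 for OXPHOS subunits, both shorter than that of the members.

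**Figure D5:**
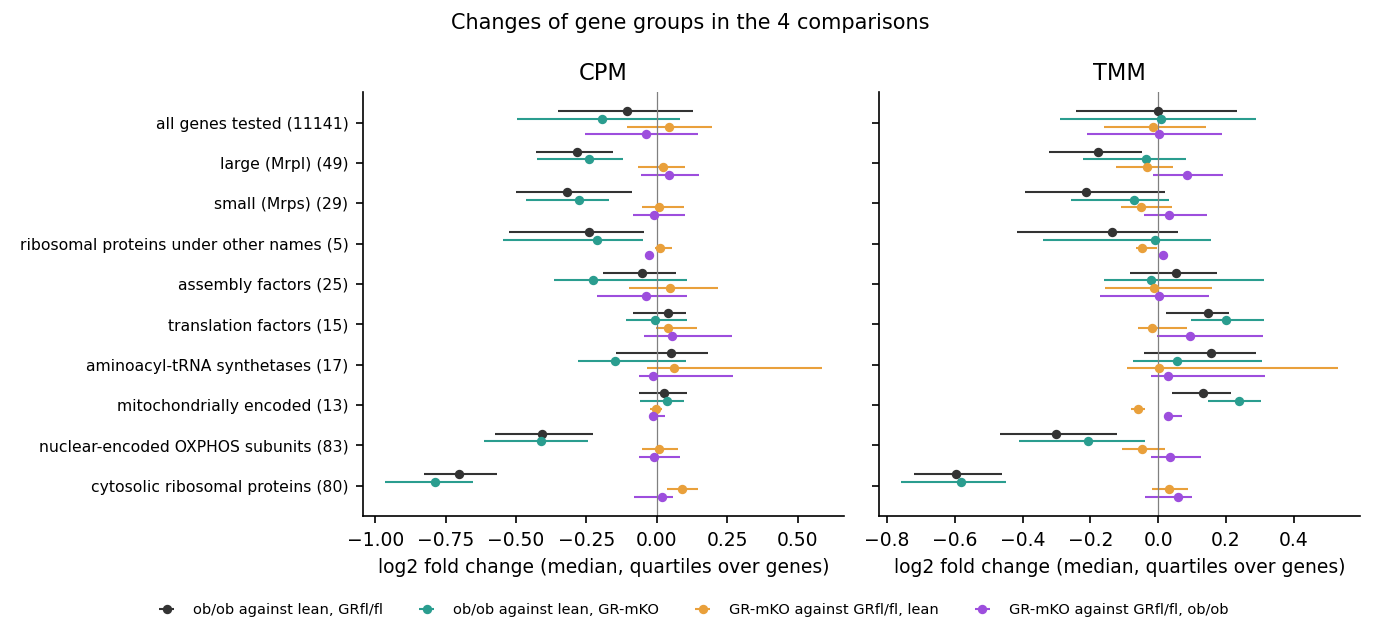
Median log2 fold change (x axis, point) with quartiles over genes (lines) of each gene group (y axis, number of genes tested) in the 4 comparisons, by CPM (left) and TMM (right). Cytosolic ribosomal proteins are lowest with obesity (-0.70 and -0.79 by CPM), Mrpl and Mrps genes lie nearer to all genes, and all medians between genotypes lie near 0.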

How the data were processed

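Gene-level values of gastrocnemius muscle were used for 4 libraries, 1 per group, each of pooled RNA from 3 mice. The deposited values are expected counts: the authors extracted RNA, sequenced 100-bp paired-end reads, quantified them with Salmon 1.2.1 on protein-coding GENCODE transcripts (mm10), and used tximport (length-scaled TPM) in R 3.5.0 to obtain gene-level values. Gene names were unique, since only the entry with most counts was kept for each. Reads of pseudogenes may be assigned to their parent genes, since only protein-coding transcripts were used, and Mrps6 shares exons with other genes.

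Counts were divided by library totals (19897754 to 20959781) to give CPM. TMM factors came from edgeR 4.0.16 and size factors from DESeq2 1.42.0, in R 4.3.3, on counts rounded to whole numbers, for scaling only. Of the genes, 14206 had counts above 0 in all libraries, and 11141 also had a mean of at least 50. Clopper-Pearson 95% intervals (scipy 1.17.1, Python 3.11.15) of rounded counts cover counting error only. With 1 library per group no test was made, and NOISeq, which simulates replicates, was not used. The computation was tested on simulated data. Groups came from the labels. Members and lists were chosen with earlier results of these data known. Members were named by a rule: past 1.5-fold by CPM and TMM in a comparison, the 3 largest changes in each direction, the 5 highest and 5 lowest per kilobase, and symbols that hide the place; others are said to be chosen later. The alternatives were TMM, DESeq2 factors, library sizes without mitochondrially encoded genes or the 50 most abundant genes, filters, folds of 1.25 and 2, place in the ribosome, and, added after seeing the data, coding length, length classes, marker sums without 1 gene and the NRF1 motif without its last letter.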

Additional observations from a re-analysis of the deposited data

How the results depend on the processing

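No paired analysis was possible because each group has 1 library, and no library could be left out. The log2 ratio of summed levels moved by more than its counting interval with the scaling. By TMM it was -0.188 and -0.0893 with obesity in GRfl/fl and GR-mKO mice, and -0.0402 (reversed) and 0.0584 for genotype in lean and ob/ob mice. By DESeq2 factors it was -0.177, -0.0800, -0.0320 (reversed) and 0.0650. With library sizes that leave out the 50 most abundant genes it was -0.259, -0.213 and, for genotype in ob/ob mice, 0.0583. The median change with obesity in GR-mKO mice was -0.0641 by TMM and -0.0549 by DESeq2 factors. Members that fell with obesity numbered 3 in GRfl/fl and 0 in GR-mKO mice by TMM, beside 7.95% and 11.5% of all genes, and by DESeq2 factors, beside 7.66% and 11.3%. With the lower of the other folds tried, 35 (44.9%) and 30 (38.5%) fell, beside 27.3% and 38.2% of all genes tested, so that the members' share was no longer below that of all genes, and between genotypes 1 rose in lean and 2 in ob/ob mice, beside 14.4% and 11.7%. At 2-fold, 0 fell with obesity in either genotype, beside 2.9% and 6.68%, and 0 with genotype in lean mice, beside 1.15%. By coding length, the shortest members had medians of -0.47 and -0.43 with obesity, and the longest had -0.10 in GRfl/fl mice. Why the scalings differ was not tested. Leaving out the filter or its minimum mean, leaving mitochondrially encoded genes out of the library size, and assigning subunits by place moved none of these results beyond the tolerance. Depth limits single members, whose intervals had a median half-width of 0.16 to 0.17 on the log2 scale.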
